A study of Mus musculus with 3 samples.

Results

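The nuclear long non-coding RNAs Neat1 and Malat1 were examined together with 7 proteins that bind Neat1 or decide how its transcript ends, Sfpq, Nono, Pspc1, Rbm14, Hnrnpk, Cpsf6 and Nudt21. All probes of these 9 genes were taken from 3 one-colour mouse arrays by the transcript name that each probe carries, which gave 18 of the 55681 probes on the array. Neat1 had 6 probes, Malat1 had 1 and the protein genes had 11. Neat1 was chosen by its log2 difference between the BMS614 and the None array, which had already been seen, and Malat1 and the proteins were added for their relation to it. The Neat1 values are therefore a description of the probes that led to the choice.

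The cells were NIH3T3, an immortalized line of mouse embryonic fibroblasts, labelled wild type and grown to confluency in medium with serum. One culture, called None, was untreated. One was given 20 μM AR7, a synthetic ligand of the retinoic acid receptor alpha (RARα) that raises chaperone-mediated autophagy, and one was given 20 μM BMS614, a RARα antagonist. Cells were collected after 24 h. Both compounds were dissolved in DMSO, and because the labels do not say whether the untreated cells received DMSO, the effect of a compound and that of its solvent cannot be told apart.

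Each condition had 1 array, so no statistical test was possible, and the only error that could be measured was that between repeated spots within an array. It is given as the SD of a log2 difference between 2 arrays over 267 probes printed 10 times, in bins of signal. It leaves out the spread between cultures. The 3 arrays lay on 1 slide, and AR7 and BMS614 were compared with the same None array, so the differences of both compounds share any error of that array. Of the probes, 55.4% were well above background in None, 61.3% in AR7 and 61.8% in BMS614, and the 75th percentile of raw intensity was 692, 780.5 and 909. All 18 probes were well above background on all 3 arrays, and none was saturated. Of 12 fibroblast markers 11 were above background on all arrays, and Postn was on none. Of 13 measured markers of other cell types 5 were, namely Cdh1, Krt8, Cd3e, Pecam1 and Rbfox3.

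Paraspeckles are nuclear bodies assembled on the long isoform of Neat1, and they hold back proteins and edited RNAs in the nucleus. A short isoform starts at the same place and ends early at a polyadenylation site, and it does not build the body. Malat1 is transcribed from a neighbouring gene on chromosome 19 and collects in nuclear speckles, which store splicing factors. Both RNAs are abundant in cultured fibroblasts.

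All 6 Neat1 probes were lowest on the BMS614 array, intermediate with AR7 and highest in untreated cells. The brightest probe had a normalized log2 signal of 14.97 in None, 14.75 with AR7 and 14.11 with BMS614, from raw intensities of 28288, 26848.5 and 20551. The dimmest Neat1 probe, A_30_P01023251, read 14.09, 13.86 and 13.25 in the same order. The one Neat1 probe that carries a RefSeq transcript name, A_51_P234692, read 14.91, 14.70 and 14.01. The order of the 3 arrays was the same for each of these probes and also in the raw intensities, which had not been scaled between arrays.

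The mean difference over the 6 Neat1 probes was −0.85 on the log2 scale for BMS614 minus None (SD over probes 0.035), a level 1.80-fold lower, and single probes lay between −0.90 and −0.80. For AR7 minus None it was −0.22 (SD over probes 0.027), 1.17-fold lower, with single probes between −0.27 and −0.19. The probes read the same 3 RNA samples, so their small SD describes the probes and not the cultures. At this signal the SD between repeated spots was 0.045 for BMS614 and 0.049 for AR7, so the BMS614 differences were 17.5 to 19.8 such SDs in size and the AR7 differences 3.83 to 5.45. The array measured total RNA of whole cultures, in which fewer cells that express a gene and less of its RNA per cell cannot be told apart. The files do not give the positions of the Neat1 probes along the transcript, so the long and the short isoform were not separated here.

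**Figure D1:**
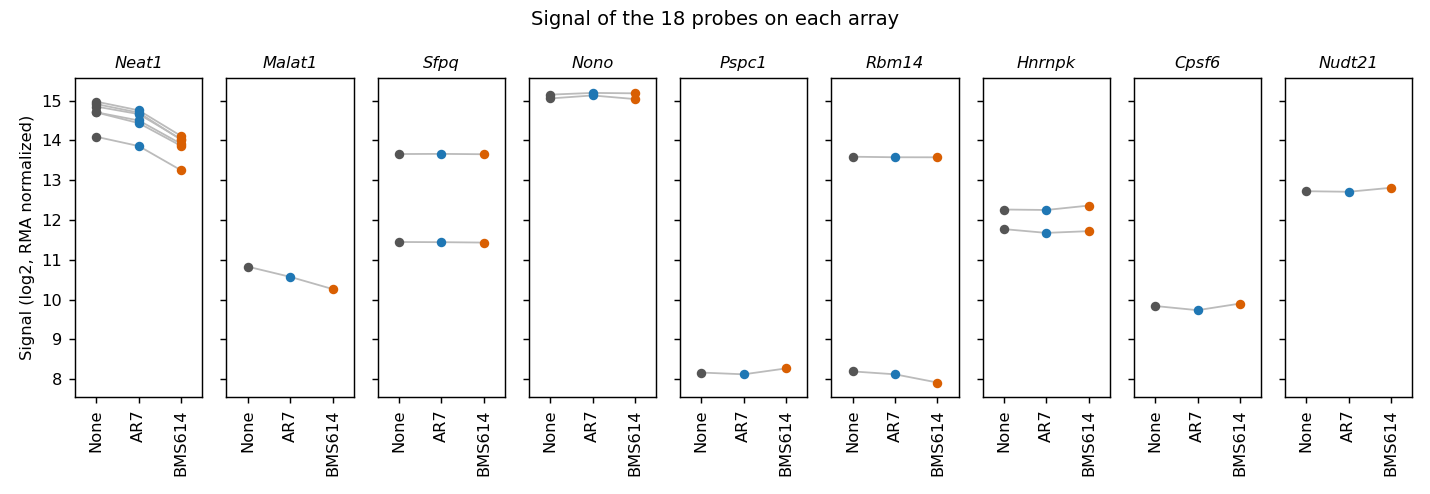
Normalized log2 signal (vertical axis) of the 18 probes on the None, AR7 and BMS614 arrays (horizontal axis), with 1 panel per gene and a line joining the 3 values of each probe. The 6 Neat1 lines and the Malat1 line step down from None to AR7 to BMS614, while the lines of the 7 protein genes run nearly level. Heights of different probes cannot be set against each other, because each probe binds its target differently.

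Malat1 was lower with both compounds as well. Its only named probe had a log2 signal of 10.83 in None, 10.57 with AR7 and 10.26 with BMS614, from raw intensities of 1681, 1611 and 1559. The difference was −0.56 with BMS614, 1.48-fold lower and just short of 1.5-fold, and −0.26 with AR7, 1.19-fold lower. These were 8.55 and 4.24 SDs of repeated spots. Malat1 thus had the same order of arrays as Neat1.

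The stretch of DNA around the Malat1 start is shown because Malat1, of the 2 RNAs, has a start site in the RefSeq promoter table (GRCm38.p6), which held 8 of the 9 genes but not Neat1. It covers chr19:5802623-5802922 on the minus strand, from 250 bases before the start to 50 after it, and is written 5′ to 3′ with the letters ACGTG in capitals.
Malat1: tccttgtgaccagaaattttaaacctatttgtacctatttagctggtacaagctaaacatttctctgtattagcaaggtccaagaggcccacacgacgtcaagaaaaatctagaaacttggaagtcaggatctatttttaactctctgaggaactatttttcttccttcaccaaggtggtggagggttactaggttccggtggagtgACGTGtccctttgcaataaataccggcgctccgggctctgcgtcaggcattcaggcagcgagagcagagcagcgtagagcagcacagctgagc
Of 11 short motifs searched on both strands, ACGTG, the core that hypoxia-inducible factors recognize, was the only one with a match, which begins at position −43 relative to the gene start. It is found in 19.6% of the 32851 promoters of this length. The letters AGGTCA, the element that nuclear receptors such as RARα recognize, are found in 16.3% of these promoters and had no match here. Direct repeats of AGGTCA with spacers of 2 and 5 bases had none either. The same held for the TATA box (TATAAA), the box of nuclear factor Y (CCAAT), the box of Sp1 (GGGCGG) and the cyclic AMP element (TGACGTCA). It also held for the heat shock core in its first form (GAANNTTC) and its second form (TTCNNGAA), and for the antioxidant core (TGACNNNGC). The ACGTG and TGACGTCA searches can overlap. The matches describe letters only, and no binding was measured.

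The array also carries probes for unnamed intervals of transcribed DNA, among them 16 F and 11 R probes between positions 5771425 and 5848475 of chromosome 19 (mm9), a stretch chosen with the Neat1 and Malat1 values already seen. No mm9 annotation was used, so these probes were not assigned to a gene, and their positions are not on the build of the Malat1 sequence above. R and F are the letters in which their names end. Of the 11 R probes 10 were above background on all arrays, and all 10 were lower with BMS614, by log2 differences from −0.72 to −0.40 (median −0.54). With AR7 8 of these 10 were lower, and the differences ran from −0.41 to 0.22 (median −0.10). The 3 R probes of chr19:5801802-5802597 were among the brighter, and they differed by −0.61 to −0.54 with BMS614 and by −0.19 to −0.10 with AR7. The 3 R probes of chr19:5834117-5835940 differed by −0.54 to −0.40 with BMS614 and by −0.01 to 0.22 with AR7. Of the 15 measured F probes 10 were lower with BMS614, with a wider range of −1.43 to 0.37 (median −0.13), and 9 were lower with AR7 (median −0.04). Probes of both letters therefore gave more lower than higher values with BMS614, and the R probes did so without exception.

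The core paraspeckle proteins did not share the lower signal of Neat1. Sfpq, Nono and Pspc1 form the family of splicing factor-like proteins that coat Neat1 and pair with each other, and Sfpq and Nono keep its long isoform stable. The brighter Sfpq probe had log2 signals of 13.66 in None, 13.66 with AR7 and 13.65 with BMS614, and the dimmer had 11.45, 11.44 and 11.43. All Sfpq differences were thus at most 0.014 in size. The brighter Nono probe read 15.15, 15.19 and 15.18 in the same order, and the other read 15.05, 15.13 and 15.04. Their differences from None, from −0.02 to 0.08, were within 2 SDs of repeated spots. Pspc1 read 8.17, 8.12 and 8.27, and its differences of −0.04 with AR7 and 0.10 with BMS614 were smaller than the SD of 0.13 and 0.12 between repeated spots at its low signal.

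Rbm14 and Hnrnpk contribute to paraspeckles in other ways. Rbm14 carries a prion-like domain that links paraspeckle ribonucleoproteins into a body, and Hnrnpk favours the long Neat1 isoform by interfering with the early polyadenylation site. One Rbm14 probe, printed 10 times on each array, had mean log2 signals of 13.59 (SD over 10 spots 0.16) in None, 13.58 (0.16) with AR7 and 13.57 (0.17) with BMS614. Its 10 spots gave a mean difference of −0.01 for AR7 (SD 0.12, range −0.31 to 0.16) and −0.01 for BMS614 (SD 0.049, range −0.09 to 0.09), so the spots lay on both sides of 0. The second Rbm14 probe was far dimmer and read 8.19, 8.12 and 7.91, a difference of −0.28 with BMS614 that is 2.29 SDs of repeated spots at that signal. The Rbm14 probes thus did not give the same value with BMS614, and the one with 10 spots showed no such difference. The brighter Hnrnpk probe read 12.26 in None, 12.25 with AR7 and 12.36 with BMS614, and the other read 11.77, 11.68 and 11.72. With BMS614 they moved in opposite directions, 0.10 and −0.05.

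Cpsf6 and Nudt21 are the large and the small subunit of cleavage factor Im, which promotes use of the early polyadenylation site and with it the short Neat1 isoform. Cpsf6 read 9.84 in None, 9.73 with AR7 and 9.90 with BMS614. Nudt21 read 12.72, 12.71 and 12.81. Both subunits were slightly lower with AR7, by −0.11 and −0.01, and slightly higher with BMS614, by 0.06 and 0.09, all within 2 SDs of repeated spots.

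Over the 11 probes of the 7 protein genes the median difference was −0.01 with AR7 (range −0.11 to 0.08, 3 higher and 8 lower) and −0.005 with BMS614 (range −0.28 to 0.10, 5 higher and 6 lower). With each gene taken by its brightest probe, the median of the 7 protein genes was −0.01 with AR7 (2 higher and 5 lower) and 0.06 with BMS614 (5 higher and 2 lower). The medians over all 13805 named genes above background on all arrays, also by the brightest probe, were −0.003 and 0.001. The largest fold of the 11 protein probes with either compound was 1.21, at the dim Rbm14 probe with BMS614.

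**Figure D2:**
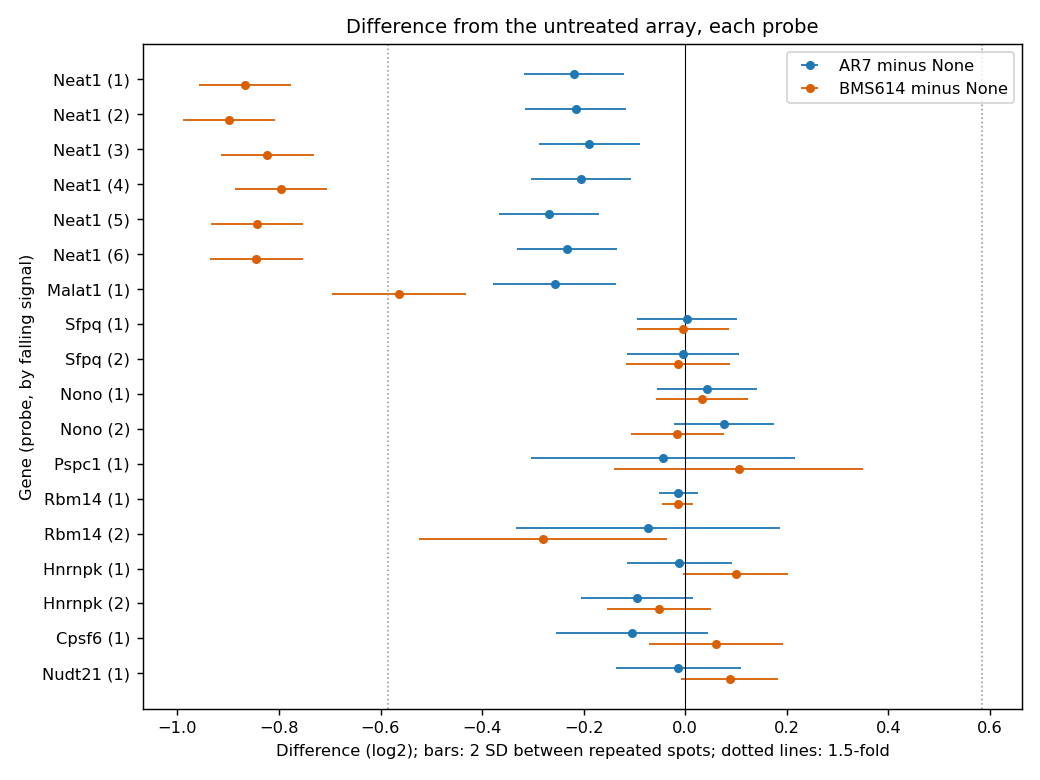
Log2 difference from the None array (horizontal axis) of each of the 18 probes (vertical axis), for AR7 in blue and BMS614 in orange. Bars are 2 SDs of the difference between repeated spots, divided by the root of the number of spots where a probe has several, and dotted lines mark 1.5-fold. The Neat1 probes lie near −0.85 with BMS614 and near −0.22 with AR7, the Malat1 probe at −0.56 and −0.26, and the protein probes around 0.

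At a threshold of 1.5-fold, 6 of the 18 probes were lower with BMS614 and none was higher, against a background of 7.18% of 33398 probes in either direction and 3.65% lower. All 6 were the Neat1 probes. With AR7 none of the 18 passed 1.5-fold, against 6.48% of 33435 probes in either direction and 3.24% lower. These backgrounds are printed for scale only, since Neat1 was chosen for its difference. At a threshold of 2 SDs of repeated spots, chosen after the values were seen, 7 probes were lower with AR7, the 6 of Neat1 and that of Malat1, against 8.53% of all probes lower and 17.5% in either direction. With BMS614 8 were lower, these 7 and the dim Rbm14 probe, against 12.8% lower and 25.7% in either direction. No member probe was higher with either compound by this threshold.

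Bright probes vary less than dim ones, so the Neat1 probes were also set beside the 4127 probes whose log2 signal averaged 13 or more. Their 5th to 95th percentile ran from −0.17 to 0.17 for BMS614 and from −0.14 to 0.16 for AR7. At least 1.5-fold lower with BMS614 were 9 of these (0.218%), of which 6 were the Neat1 probes. The others, named after their values were seen, were a probe of the U1 small nuclear RNA gene Rnu1b6 (−1.0), an R probe of chr19:5801802-5802597 (−0.61) and a probe of an unnamed interval of chromosome 11 (−0.98). Among 10017 named genes whose log2 signal averaged 8 or more, Neat1 by its brightest probe had the 6th lowest difference with BMS614 and the 226th lowest with AR7. Malat1 had the 16th and the 132nd lowest. The genes below Neat1 with BMS614 were 1700022A21Rik (−1.13), Fam13c (−1.03), Tox4 (−1.02), Rnu1b6 (−1.0) and Rmrp (−0.90).

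AR7 and BMS614 were given at the same dose for the same time and could be compared directly. Neat1 was higher with AR7 than with BMS614 at each of its 6 probes, by a mean log2 difference of 0.62 (SD over probes 0.040), or 1.54-fold, with single probes between 0.57 and 0.68. Malat1 was higher with AR7 by 0.31, or 1.24-fold. The 11 protein probes ran from −0.17 to 0.21 (median 0.001). At 1.5-fold 5 of the 18 probes passed, all of Neat1 and all higher with AR7, against 7.42% of 35599 probes in either direction and 3.71% higher, and the sixth Neat1 probe was at 1.49-fold. By 2 SDs of repeated spots 11 of the 18 differed, against 23.7% of all probes, 8 of them higher with AR7 and 3 lower. The 8 higher were those of Neat1 and Malat1 and a probe of Nono (0.09). The 3 lower were probes of Hnrnpk (−0.11), Cpsf6 (−0.17) and Nudt21 (−0.10). With 1 array per compound no interval over cultures could be given for these differences.

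The other proteins that occur in paraspeckles were drawn from a list of 35 genes, of which 34 were above background on all arrays. Their median difference was 0.02 with each compound. With AR7 5 were higher and 1 was lower by more than 2 SDs of repeated spots, against 9.64% and 8.89% of 13805 genes by their brightest probe. With BMS614 9 were higher and 4 were lower, against 13.9% and 12.3%. The lowest with BMS614 were the microtubule-severing protein gene Fign (−0.54), the homeobox gene Dlx3 (−0.40) and Pced1a (−0.29), and the highest were the RNA-binding protein gene Celf6 (0.44), Ss18l1 (0.42) and the RNA-binding protein gene Rbmx (0.27). The lowest with AR7 were Dlx3 (−0.15), Hnrnph3 (−0.15) and Akap8l (−0.11). The highest were Celf6 (0.47), the zinc finger protein gene Zfp335 (0.26) and Ahdc1 (0.22). Hnrnph3 was dim, with a log2 signal of 4.78 in None. Its difference with AR7 was 0.35 SDs of repeated spots, and that of Akap8l was 1.29. Celf6 had a second probe that went the other way, at −0.27 with AR7 and −0.41 with BMS614. By the brightest probe of each gene, Enox1 alone was past 1.5-fold with AR7, against 3.89% of 14695 genes. It was above background only on the AR7 array, where it was at least 1.39 higher on the log2 scale. With BMS614 no gene of the list passed 1.5-fold by its brightest probe, against 4.25% of 14681 genes. Dimmer probes did, for Srsf10 (1.52) and Ahdc1 (0.80) with AR7 and for Wtap (0.85) with BMS614. The brightest probes of these genes were at 0.03, 0.22 and 0.008 in the same comparisons.

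Nuclear speckles, the bodies in which Malat1 collects, were represented by 24 genes, all above background. The median difference was −0.004 with AR7 and 0.02 with BMS614. None passed 1.5-fold by its brightest probe, beside 3.89% of 14695 genes with AR7 and 4.25% of 14681 with BMS614. By 2 SDs 4 were higher and 3 lower with AR7, beside 9.64% and 8.89% of the 13805 genes, and 3 were higher and 4 lower with BMS614, beside 13.9% and 12.3%. Clk4, a kinase of splicing factors, was the lowest with both compounds, at −0.23 and −0.17. Also low were Srrm2 (−0.15) and the splicing factor gene Srsf1 (−0.14) with AR7, and Pnn (−0.13) and the RNA helicase gene Ddx39b (−0.11) with BMS614. The kinase gene Cdk13 was high with both, at 0.19 with AR7 and 0.30 with BMS614, beside the spliceosome core gene Prpf8 (0.24) and Acin1 (0.17) with AR7 and Prpf4b (0.17) and the speckle scaffold gene Son (0.15) with BMS614. The second probes of Acin1 and Srrm2 went the other way with AR7, at −0.14 and 0.07, and 1 of the 3 Srsf1 probes was at 0.004. The −0.15 of Srrm2 was 0.68 SDs of repeated spots at its low signal. With BMS614 the second Acin1 probe was at −0.57, and the brightest was at −0.09.

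The factors that cleave and polyadenylate RNA, and the enzymes RNase P and RNase Z, which form the end of Malat1, were taken from a list of 23 genes, with 22 above background. None passed 1.5-fold by its brightest probe, beside 3.89% of 14695 genes with AR7 and 4.25% of 14681 with BMS614. The median difference was −0.009 with AR7 and 0.002 with BMS614. With AR7 none passed 2 SDs, beside 9.64% higher and 8.89% lower of all genes, and the lowest and highest were the cleavage factor gene Cpsf4 (−0.11) and Pcf11 (0.14), with Pop1 (−0.09), Papola (−0.08), Rpp30 (0.08) and Clp1 (0.07) next to them. With BMS614 5 were higher and 2 were lower by 2 SDs, beside 13.9% and 12.3% of all genes. The lowest was Papola, the main nuclear poly(A) polymerase, at −0.42, and the highest was Sympk, the scaffold of the cleavage complex, at 0.44. Next to Papola were Pop1 (−0.13), a protein subunit of RNase P and RNase MRP, and Elac2 (−0.08), which cuts the end of transfer RNAs. Next to Sympk were Rpp30 (0.33), another subunit of RNase P, and Pcf11 (0.25). At the low signal of Pcf11 its differences were 0.33 SDs of repeated spots with AR7 and 0.73 with BMS614. A dimmer probe of Cpsf4 was at −0.90 with BMS614, past 1.5-fold, where its brightest probe was at −0.05.

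Other non-coding RNAs were taken from a list of 23, of which 14 had a probe and 12 were above background on all arrays. Their median difference was −0.10 with each compound, and by 2 SDs 2 were higher and 5 lower with AR7, and 3 were higher and 5 lower with BMS614. Over all 13805 genes these shares were 9.64% and 8.89% with AR7 and 13.9% and 12.3% with BMS614. Rmrp, the RNA of RNase MRP, was lower by −0.90 with BMS614 and −0.36 with AR7. Mir17hg, host of a microRNA cluster, was at −0.77 and −0.31, and the small nucleolar RNA host Snhg3 was at −0.36 with BMS614. The Mir17hg difference with AR7 was 1.38 SDs of repeated spots. Mirg was at −0.36 with AR7. Kcnq1ot1, an imprinted antisense RNA, was higher by 0.81 with BMS614 and 0.97 with AR7, although its other probe gave 0.75 and −0.10. Pvt1 (0.13) and the imprinted antisense RNA Airn (0.04) followed with AR7, and Airn (0.23) and Tug1 (0.14) with BMS614. Another probe of Pvt1 gave −0.15 with AR7, and another of Tug1 gave −0.29 with BMS614. The non-coding RNAs therefore did not all move with Neat1. By the brightest probe, Rmrp and Mir17hg were past 1.5-fold lower with BMS614 only, and Kcnq1ot1 was past 1.5-fold higher with both compounds. Of all genes 3.89% of 14695 passed 1.5-fold with AR7 and 4.25% of 14681 with BMS614.

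The coding genes beside Neat1 and Malat1, the 6 nearest on either side in gene order, were examined because they share the chromosomal neighbourhood. Kcnk7 was not above background. The median of the other 11 was 0.02 with AR7 and 0.007 with BMS614. None passed 1.5-fold, beside 3.89% of 14695 genes with AR7 and 4.25% of 14681 with BMS614. On one side Ehbp1l1 differed by −0.16 with AR7 and −0.21 with BMS614, Fam89b by 0.05 and −0.04, and Znrd2 by 0.02 and −0.01. On that side Ltbp3, which binds latent transforming growth factor beta, differed by 0.26 and 0.23, and its other probe gave 0.07 and −0.26. On the other side Frmd8 differed by 0.08 and 0.09, Slc25a45 by 0.03 and −0.08, Tigd3 by −0.12 and 0.01, Dpf2 by 0.12 and 0.17, Cdc42ep2 by −0.02 and 0.07, and the DNA polymerase alpha subunit gene Pola2 by −0.12 and 0.07. At the low signal of Tigd3 its −0.12 with AR7 was 0.29 SDs of repeated spots. None of the neighbouring genes named came near the −0.85 of Neat1 with BMS614.

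**Figure D3:**
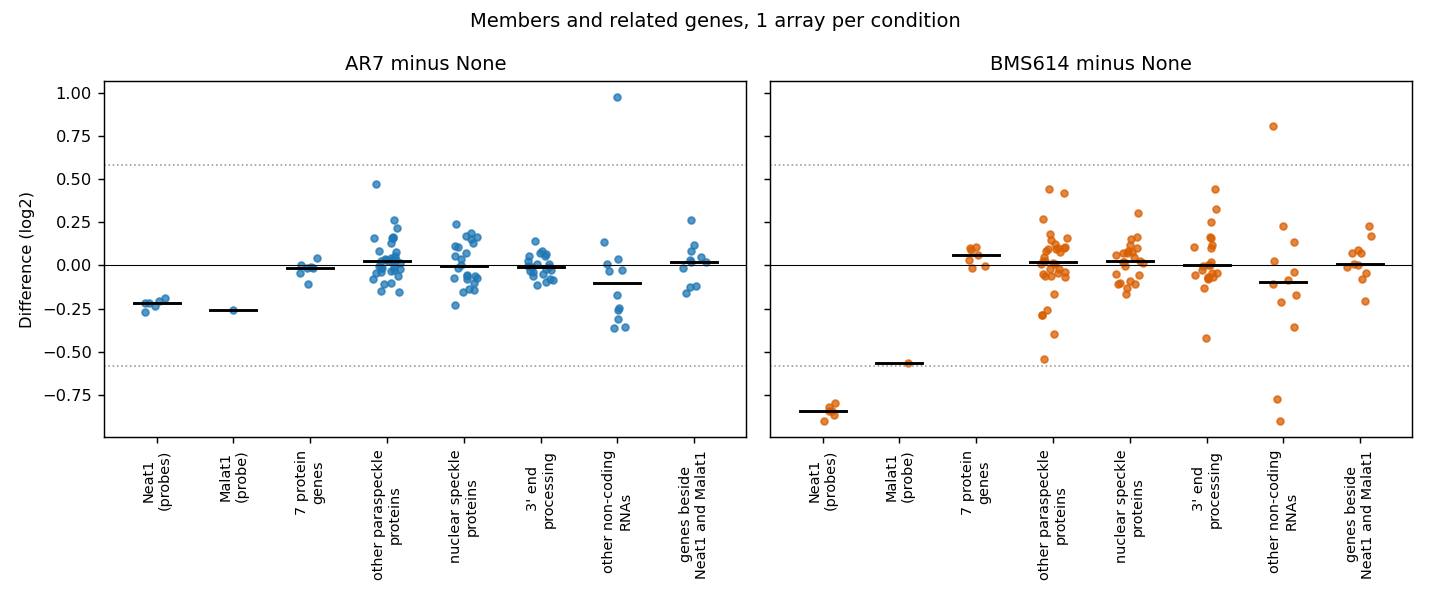
Log2 difference from the None array (vertical axis) for AR7 (left) and BMS614 (right). Points are probes for Neat1 and Malat1 and genes by their brightest probe for the other groups, lines are medians, and dotted lines mark 1.5-fold. With BMS614 the Neat1 points lie at −0.80 or below and the medians of the protein groups and neighbouring genes lie near 0.

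The genes whose pair of differences lay closest to that of the brightest Neat1 probe were found by Euclidean distance over 10016 other genes whose log2 signal averaged 8 or more. The nearest was Wfdc13 (distance 0.061), with −0.16 for AR7 and −0.87 for BMS614. Rmrp (0.143), Mfap4 (0.154), which encodes an extracellular matrix protein, Clstn3 (0.214) and the guanylate-binding protein gene Gbp6 (0.220) followed. For Malat1 the nearest were Slc49a4 (0.019), the keratin-associated protein gene Krtap4-1 (0.019), Cabp5 (0.029), the neural transcription factor gene Sox1 (0.035) and the U2 small nuclear RNA gene Rnu2-10 (0.050). The likeness rests on 3 arrays, that is on 2 differences that share the None array, and says nothing of shared control.

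The size of the Neat1 difference depended on how the arrays were scaled. In one setting arrays were scaled on the added E1A_r60 control RNA in place of quantile normalization. The median of the probes above background on all 3 arrays was then higher by 0.21 with AR7 and 0.35 with BMS614. On that scale Neat1 was at −0.53 with BMS614 (probes −0.59 to −0.48) and at −0.03 with AR7 (−0.07 to 0.0004), and Malat1 was at −0.21 and −0.04. All 11 protein probes were then higher with both compounds, with medians of 0.34 for BMS614 and 0.19 for AR7. With that median subtracted wherever it moved by over 0.1, Neat1 stayed between −0.93 and −0.84 with BMS614 and between −0.27 and −0.22 with AR7 under all 7 settings. Neat1 was thus lower with BMS614 on every scale, while its direction with AR7 held only relative to the other probes, and 1 of its 6 probes was just above 0 on the control RNA scale.

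**Figure D4:**
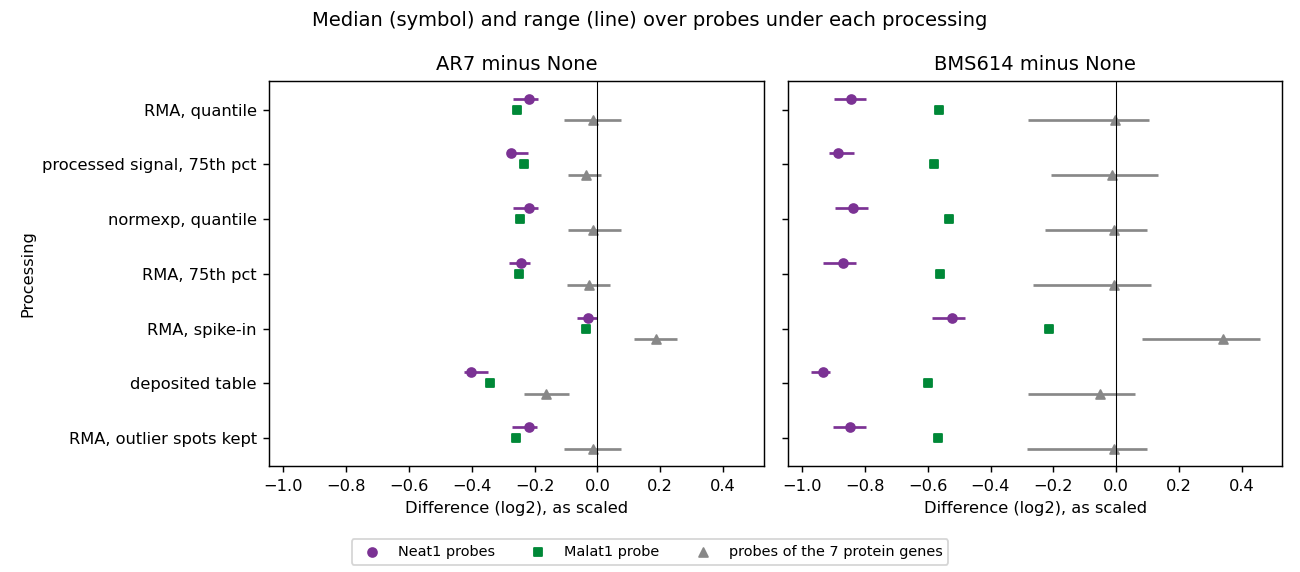
Log2 difference from the None array (horizontal axis) under 7 ways of processing the arrays (vertical axis), as scaled and before centring, for AR7 (left) and BMS614 (right). Symbols are the median and lines the range over the 6 Neat1 probes, the Malat1 probe and the 11 protein probes. The control RNA scaling moves all groups to the right by a like amount, and in every row Neat1 and Malat1 lie below the median of the protein probes.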

How the data were processed

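Total RNA of NIH3T3 cells was labelled with Cy3 and hybridized to 1 Agilent mouse array per condition, all on 1 slide. The authors deposited the scanner output, which holds the intensity of each spot (Agilent Feature Extraction 10.7.3.1, array design on mm9), not normalized between arrays. They also deposited a table of intensity values on a linear scale, although the submitters' processing notes name oligo and RMA (versions not given in the sources used here).

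Control spots and outlier-marked spots were removed. The RMA background model was fitted to the median pixel intensity of the 59305 other spots of each array, followed by quantile normalization (limma 3.58.1, R 4.3.3), log2 and averaging of a probe's spots. Of 55681 probes 27240 were matched to 20660 gene symbols through RefSeq accessions, and the 5 probes named NEAT1 were counted as Neat1. Counts of probes past a threshold cover those detected above background on 1 or both arrays of a pair, and a probe dim on one of them was given a bound. With 1 array per condition there was no test, and no p-value is given. Only the 1.5-fold call was tried on simulated data, with known shifts added to normalized values. Background correction, normalization and the spread between cultures were not tested in this way.

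The members and lists were chosen with earlier results of these data known. Named were all members, list genes past 1.5-fold and the 3 highest and 3 lowest of each list per compound, the neighbouring genes (1 item is not reported here), and the 5 genes nearest to Neat1 and to Malat1, and others are said to have been chosen after their values were seen. Alternatives were another background correction, 3 other scalings, the deposited table, outlier spots kept, other folds and other filters. The number of arrays limits the precision.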

Additional observations from a re-analysis of the deposited data

How the results depend on the processing

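No paired analysis was possible because there was a single array for every condition, and for the same reason no replicate could be left out. The planned use of mean in place of median pixel intensity was not run. Of the alternative values for summaries 182 stayed within the spread that was set and 18 moved, and of those for single probes 394 stayed and 56 moved. No difference past 1.5-fold changed its sign, but small ones did. As scaled, the sign differed for Nono in 4 of 12 probe values in each comparison and for Sfpq in 5 of 12 for AR7 minus BMS614, and for Neat1 in 1 of 36 with AR7 and 0 of 36 with BMS614. For the deposited table, Neat1 was at −0.93 with BMS614 (−0.85 in the report) and 0.54 higher with AR7 than with BMS614 (0.62). The median over the 9 genes was −0.052 for BMS614 and −0.080 for AR7 minus BMS614, and for BMS614 the medians were −0.048 over the paraspeckle list, −0.038 over the nuclear speckle list and −0.065 over the list of end processing factors. The median of the neighbouring genes with BMS614 was 0.074 with the scanner's processed signal and 0.061 with scaling to the 75th percentile. The number of probes past the threshold was 0 at 2-fold with BMS614 (6 at 1.5-fold) and 0 at 2-fold for AR7 minus BMS614 (5 at 1.5-fold), and also 0 for AR7 minus BMS614 from the deposited table. Paraspeckle genes past the threshold with AR7 (1 at 1.5-fold) were 0 with the normexp background, 2 at a threshold below 1.5-fold and 0 when a gene had to be above background on all 3 arrays. With BMS614 they were 4 at a threshold below 1.5-fold (0 at 1.5-fold), and for AR7 minus BMS614 they were 2 at a threshold below 1.5-fold and 0 above background on all 3 arrays (1 at 1.5-fold). The cause was not tested. From the dimmest to the brightest bin of signal, the SD between repeated spots fell from 0.43 to 0.049 with AR7 and from 0.35 to 0.045 with BMS614. At the signal of Pspc1 and the second Rbm14 probe it was 0.13 with AR7 and 0.12 with BMS614. Differences smaller than this could not be resolved at these probes. The −0.28 of the second Rbm14 probe with BMS614 was 2.29 such SDs.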

Other observations

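Some non-coding RNAs outside the lists above were singled out after their values were seen. In the gene annotation used, 4 genes whose log2 signal averaged 8 or more were classed as small nuclear RNAs. Of these, Rnu1b6 (U1) differed by −0.67 with AR7 and −1.0 with BMS614. Rnu2-10 (U2) differed by −0.25 and −0.51, and Rnu3b1 (U3) by −0.32 and −0.50. Rnu12, the U12 RNA of the minor spliceosome, differed by −0.03 and 0.03. Rn28s1 and Rn4.5s, both classed as ribosomal RNA in that annotation, differed by −0.02 and −0.21 and by −0.03 and −0.11. The U1, U2 and U3 genes have near-identical copies, so their probes cannot be tied to a single gene. The median over 111 long non-coding RNA genes was 0.005 with AR7 and −0.02 with BMS614, against −0.0003 and 0.004 over 9835 protein-coding genes. With BMS614 1 of the 111 (0.901%) was at least 1.5-fold lower, which was Neat1, the gene chosen by its difference, and 1 was at least 1.5-fold higher, beside 8 lower (0.0813%) and 9 higher of the protein-coding genes.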
